A study of Sus scrofa with 3 samples.

Results

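Enzymes that remove superoxide and peroxides were followed in RNA-Seq of visceral adipose tissue from miniature pigs on a diet rich in fat and cholesterol (HFC). The set was chosen by name and holds 10 of the 22826 mRNA genes, namely SOD1, SOD2, SOD3, CAT, GPX1, GPX3, GPX4, GPX7, GPX8 and PRDX3. Of these, 8 were found under their own symbol, while SOD3 and GPX7 were found by gene ID as LOC780439 and LOC100621417. GPX8 had a record under its symbol that was listed at 0 in all 3 libraries, and a second record, LOC100519691, which RefSeq names GPX8 and which held reads, so the second was used. Above 0 in at least 1 library were 9 of the 10 enzymes. GPX7 was listed at 0 throughout, as were HMOX1 and CD163, genes that fat and its macrophages are known to use, so that a listing at 0 does not show absence of expression.

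The tissue was retroperitoneal fat of Chinese Wuzhishan miniature male pigs, 6 to 7 months old when obtained. They were grouped after 7 weeks of acclimation on a standard diet, and all then received the HFC diet for 12 weeks. IM pigs were intact males with skin incisions only, CM pigs were castrated, and CMT pigs were castrated and injected weekly with testosterone propionate at 10 mg/kg. Total RNA of 4 to 6 pigs in a group, by the labels, or of 4, by the study's methods, was pooled into 1 library per group. With 1 library per group no difference has a replicate check within the sequencing. A difference between pools can come from a single pig. For NCF1, LEP, CD68, EMR1 and S100A9, all named below, the paper also reports RT-PCR on several samples per group. It describes them as increased in CM and decreased in CMT, measured in RNA samples that were also used for sequencing. No enzyme of the set was among the genes measured that way.

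Superoxide, made when oxygen takes up an electron from the respiratory chain or from oxidases, is turned into hydrogen peroxide by superoxide dismutases. Hydrogen peroxide is then removed by catalase, by glutathione peroxidases and by peroxiredoxins. The enzymes are divided by place: each works in the cytosol, in mitochondria, in peroxisomes, in membranes and the endoplasmic reticulum, or outside the cell. GPX1, GPX3 and GPX4 carry selenocysteine at the active site, whereas GPX7 and GPX8 carry cysteine. Fat cells are rich in these enzymes, and adipose tissue is one of the sources of secreted GPX3.

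Values are UQRPKM, reads per length of gene divided by the upper quartile of each library, so that levels of different genes can be set side by side. Whole reads could be recovered behind all 20838 genes above 0, and mRNA genes held 14844063, 13582288 and 13449107 reads. Where 3 values follow each other without names, they stand in the order IM, CM, CMT. Intervals are 95% intervals from these reads, exact Poisson for levels and exact Clopper-Pearson for log2 ratios. They cover counting error only, since amplified reads are not independent molecules, and they leave out differences between pigs and between library preparations. A gene is called past the fold at a ratio of 1.5 or more, which is 0.58 on the log2 scale, with at least 1 UQRPKM in both libraries. Adipocyte markers were high in every library, with ADIPOQ, the adiponectin gene, at 74928, 69193 and 63873 UQRPKM. LPL and FABP4 of that list were not analysed here. The CM library held RNA of liver genes and the CMT library RNA of skeletal muscle genes. Summed over 12 liver markers the level was 2569.7, 10674 and 1753 UQRPKM, with ALB, albumin, at 2.61, 2910.1 and 4.00, and 5 of the 12 were at 0 in IM and 4 in CMT. APOA1, at 2539, 2339 and 1714 UQRPKM, made up nearly all of the IM and CMT sums and was not highest in CM. Summed over 10 muscle markers it was 66.7, 54.6 and 5270.4, and CKM and MB were at 0 in all libraries. Of 5 mesothelium markers, LRRN4 was at 0 and the other 4, which summed to 73.5, 138 and 367 UQRPKM, were each higher past the fold in CMT than in both other libraries. The part of liver, muscle and mesothelium RNA in the differences below was not tested.

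Several of these enzymes were among the most abundant messages of the tissue. In IM, 5 of them, GPX3, CAT, GPX1, GPX4 and SOD1, stood among the first 127 of 22826 mRNA genes by level. Together the set held 1.26%, 1.12% and 1.15% of all mRNA UQRPKM. GPX3 headed the order in IM, followed by CAT, GPX1, GPX4, SOD1, PRDX3, SOD2, SOD3 and GPX8. In CM the order was CAT, GPX1, GPX3, GPX4, SOD1, PRDX3, SOD3, SOD2 and GPX8, so GPX3 stood behind CAT and GPX1, and SOD3 stood above SOD2. The CMT order was that of IM. None of the neighbours in these orders had overlapping counting intervals. The closest neighbours were GPX3 over GPX4 in CM at a ratio of 1.04, GPX4 over SOD1 in IM at 1.06 and GPX3 over CAT in CMT at 1.08.

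**Figure D1:**
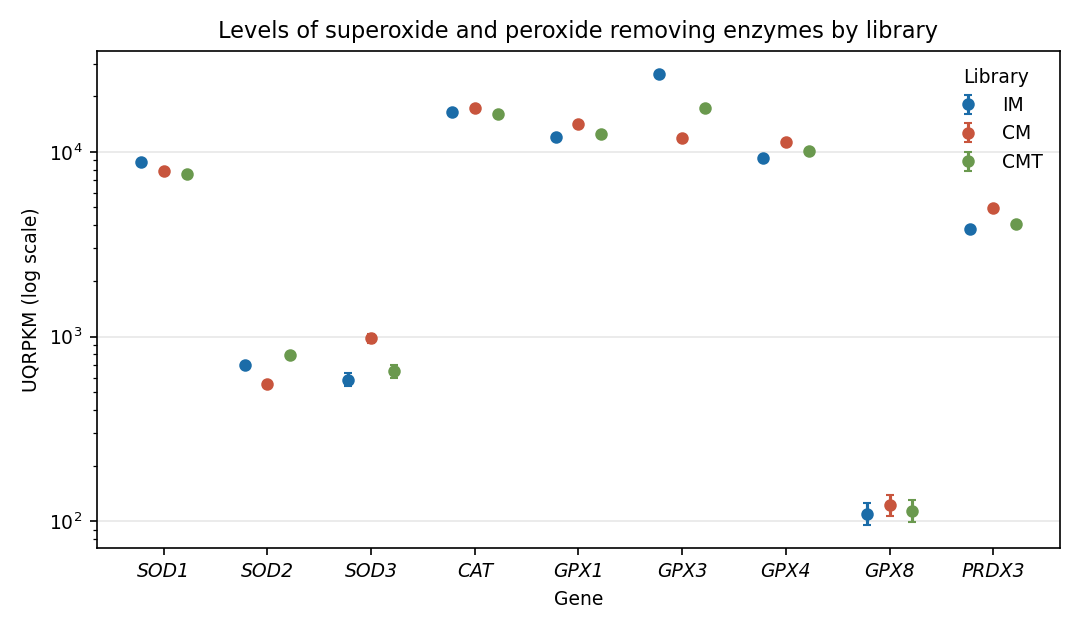
Level of each enzyme in UQRPKM (log axis) in the IM, CM and CMT libraries, with 95% Poisson intervals of the reads; 1 pooled library per group. GPX3 was highest in IM at 26408 and lowest in CM at 11852, SOD3 was highest in CM at 977, and CAT lay between 16087 and 17189.9 in all libraries.

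The comparison of CM with IM asks what castration goes with in fat under the HFC diet. GPX3, the secreted glutathione peroxidase of plasma, was lower in CM, and SOD3, the dismutase that binds to matrix outside the cell, was higher. The other 7 enzymes with reads lay within 1.5-fold, with log2 ratios between -0.34 and 0.37. Past the fold were thus 2 of 9 enzymes, 1 higher and 1 lower, beside 18.8% of the 14123 mRNA genes compared, 8.38% higher and 10.4% lower, or 9.83% where an exact binomial test on the reads had to be passed as well. A share of 2 of 9 is near that background and is no result about the set as a whole. All 9 enzymes had at least 100 UQRPKM in both libraries, where few genes passed the fold: 4.12% of 5411 genes. The median log2 ratio was 0.15 over the 9 enzymes and -0.06 over all genes compared.

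GPX3 had 26408, 11852 and 17379.9 UQRPKM in the IM, CM and CMT libraries, on 61659, 26373 and 39762 reads. It was high in IM, low in CM and in between in CMT. IM exceeded CM 2.23-fold, a log2 ratio for CM versus IM of -1.16 (95% interval -1.18 to -1.13). Among the 5411 genes at 100 UQRPKM or more in both this was the 16th lowest log2 ratio. By difference in UQRPKM, -14556, it was the second of all mRNA genes, after FTH1, the ferritin heavy chain. Its place among mRNA genes by level was 27, 83 and 55. In bulk tissue, fewer cells of a type and less RNA per cell cannot be told apart. Kidney tubule, a known main source of GPX3, left almost no reads, 12, 8 and 5 over 7 markers, of which UMOD, SLC12A1, SLC34A1 and AQP2 were at 0 in all libraries. Adipocyte markers, 6 genes, summed to 131389, 122400.5 and 105490.0 UQRPKM, lowest in CMT. Most of the sum was ADIPOQ, and single genes differed, with PNPLA2 at 10283, 7431 and 7827 UQRPKM, lowest in CM as GPX3 was, and LEP, leptin, at 167, 502 and 156, highest in CM. The part of adipocyte content in the GPX3 difference was not tested.

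SOD3 had 584, 977 and 648 UQRPKM in the IM, CM and CMT libraries, on 639, 1018 and 694 reads. CM was high, whereas IM and CMT lay close together with overlapping intervals, 539.8 to 631 and 600.3 to 698. The ratio of CM to IM was 1.67, a log2 ratio of 0.74 (95% interval 0.60 to 0.89), the 44th highest among the 5411 genes at 100 UQRPKM or more. Vascular smooth muscle is a known source of SOD3. The 6 smooth muscle markers in the data summed to 5679.9, 4261 and 4495 UQRPKM, with MYH11 at 0 in all libraries. Without DES, desmin, which skeletal muscle also expresses, the other 5 summed to 5627, 4228 and 4036, highest in IM. Macrophage markers, 11 genes with CD163 at 0, summed to 7880.2, 6784 and 6342 UQRPKM, most of it from C1QA and C1QC. CD68, EMR1 and MARCO of that list were higher past the fold in CM than in IM, and none was lower. They had 17.2, 42.9 and 22.2 UQRPKM for CD68, 45.6, 93.6 and 30.6 for EMR1 and 16.8, 37.9 and 10.7 for MARCO, highest in CM as SOD3 was. CD68 and MARCO had at most 90 reads in a library. Under the fold, C1QA, C1QC, CSF1R and MRC1 had log2 ratios of -0.43, -0.30, -0.22 and -0.06 for CM versus IM. Those of AIF1, C1QB and CD14 were 0.47, 0.19 and 0.02. Neutrophil markers, 7 genes, summed to 504.2, 4884 and 964.5 and were highest in CM, through S100A8, S100A9 and S100A12, with CSF3R at 0 in all libraries. CXCR2 was not highest in CM, with 5.08, 4.69 and 4.35 UQRPKM on 25, 22 and 21 reads. MPO and ELANE had at most 1 read in a library. The part of these cells in the SOD3 difference was not tested.

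SOD1, the copper and zinc dismutase of the cytosol, had 8802, 7897 and 7617 UQRPKM. It was highest in IM, and the log2 ratio for CM versus IM was -0.16 (95% interval -0.19 to -0.12). SOD2, the manganese dismutase of mitochondria, had 697, 551 and 799 UQRPKM. It was lowest in CM, and CM against IM gave a log2 ratio of -0.34 (95% interval -0.41 to -0.27). SOD2 and SOD3 therefore lay in opposite order in CM and IM, and the ratio of SOD1 to SOD3 was 15.1, 8.08 and 11.8.

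Catalase, the peroxisomal enzyme that splits hydrogen peroxide without a reductant, differed little between libraries. CAT had 16538, 17189.9 and 16087 UQRPKM, and its highest and lowest libraries differed 1.07-fold, or 1.08-fold at most under the other scalings. On 55266 to 57983 reads per library the counting interval of its log2 ratio between CM and IM, 0.06, ran from 0.04 to 0.07. Peroxisomes hold catalase, and of 19 genes of peroxisome biogenesis and peroxisomal transport none was past the fold in CM versus IM, with a median log2 ratio of -0.05. Red blood cells are rich in catalase and SOD1, and 7 erythroid markers summed to 4635, 4284 and 2387 UQRPKM, lowest in CMT. The part of blood in these levels was not tested.

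GPX1, the glutathione peroxidase of the cytosol, had 12103, 14147 and 12533 UQRPKM. GPX4, which reduces lipid peroxides within membranes, had 9287, 11361 and 10162 UQRPKM. PRDX3, the mitochondrial peroxiredoxin, had 3842, 4959.6 and 4069 UQRPKM. These 3 enzymes had one pattern, highest in CM and lowest in IM. SOD3 and GPX8 shared this order as deposited, and CAT had it under the 3 other scalings. CMT lay nearer to IM than to CM, at 79.0% of the way from CM to IM for GPX1, 57.8% for GPX4 and 79.7% for PRDX3. Under the 3 other scalings this held for PRDX3, with 57.8% as its lowest value, but GPX4 stood nearer to CM in each, at 33.1% to 46.7%, and GPX1 in 1, at 44.9% with equal recovered reads. The log2 ratios for CM versus IM were 0.23 for GPX1, 0.29 for GPX4 and 0.37 for PRDX3, all under 1.5-fold, and none of their intervals included 0. GPX8, which sits in the membrane of the endoplasmic reticulum, had 109.7, 122 and 114 UQRPKM on 205, 217 and 208 reads. Its intervals overlapped in all libraries. For CM against IM its log2 ratio was 0.15 with an interval from -0.13 to 0.43, so no difference was detectable at this depth.

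**Figure D2:**
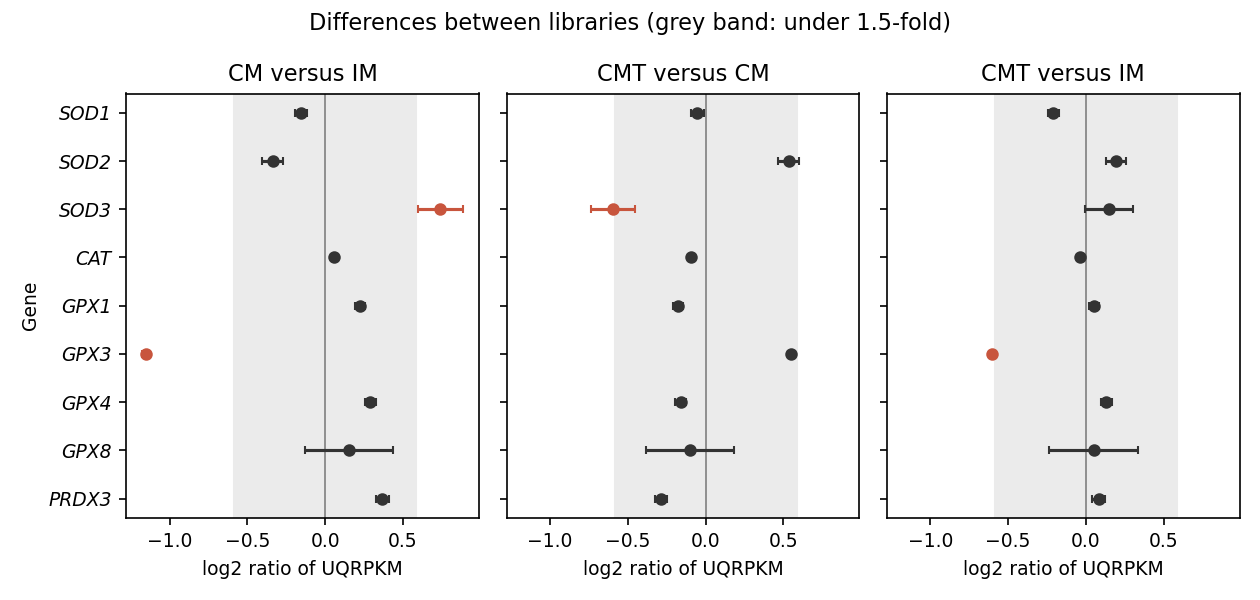
Log2 ratio of UQRPKM of each enzyme in the 3 comparisons, with 95% Clopper-Pearson intervals of the reads; the grey band spans ratios under 1.5-fold and red points lie outside it. GPX3 at -1.16 and SOD3 at 0.74 lay outside in CM versus IM, SOD3 at -0.59 in CMT versus CM and GPX3 at -0.60 in CMT versus IM.

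CMT was compared with CM to see which levels differ when castrated pigs receive testosterone. It shares the CM library with the one above, so a CM value that stood apart for any reason would show in both. Past the fold was 1 of 9 enzymes, SOD3, beside 19.5% of 14098 mRNA genes, 9.53% higher and 9.97% lower, or 10.3% with the exact binomial test and 5.24% of the 5327 genes at 100 UQRPKM or more. SOD3 was lower in CMT, 648 against 977 UQRPKM, with a log2 ratio of -0.59 (95% interval -0.73 to -0.45). The log2 ratio of GPX3 was 0.55 (95% interval 0.53 to 0.57), a ratio of 1.47 that stayed just under the fold. SOD2 had a log2 ratio of 0.53 (95% interval 0.47 to 0.60), a ratio of 1.45. These calls turned on the scaling. With libraries scaled to equal recovered mRNA reads, GPX3 at 0.61 and SOD2 at 0.59 were past the fold and SOD3 at -0.54 was not.

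For the remaining 6 enzymes the log2 ratios ran from -0.29 to -0.05. PRDX3 was lowest at -0.29 (95% interval -0.33 to -0.25), followed by GPX1 at -0.17, GPX4 at -0.16, GPX8 at -0.10, CAT at -0.10 and SOD1 at -0.05. The sign of SOD1 turned under scaling to equal recovered reads, to 0.002. The median of the 9 enzymes was -0.10, and that of all genes compared was -0.02.

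Between CMT and IM, which asks how castrated pigs on testosterone compare with intact pigs, 1 of 9 enzymes was past the fold, GPX3, beside 20.7% of 14151 mRNA genes, 8.81% higher and 11.9% lower, or 11.7% with the exact binomial test and 6.55% of the 5378 genes at 100 UQRPKM or more. Both libraries had also entered the comparisons above. GPX3 was lower in CMT, with a log2 ratio of -0.60 (95% interval -0.62 to -0.59), a 1.52-fold difference close to the limit. Each of the 3 other scalings took it under the fold, the value nearest to 0 being -0.49. The other enzymes had log2 ratios between -0.21, for SOD1, and 0.20, for SOD2. SOD3 had 0.15 with an interval from -0.01 to 0.31, and GPX8 0.05 with an interval from -0.23 to 0.34, so that neither differed from 0 beyond counting error. The sign of CAT, -0.04 as deposited, turned under each of the other scalings, up to 0.07. CMT lay between IM and CM for 6 of the 9 enzymes, GPX1, GPX3, GPX4, GPX8, PRDX3 and SOD3. With CAT it was 7 of 9 under 2 of the other scalings, and with CAT and SOD1 8 of 9 at equal recovered reads. On the way from the CM to the IM value, the CMT value stood at 38.0% for GPX3 and at 83.9% for SOD3. SOD2 was highest in CMT.

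The share of an enzyme in its class is free of the scaling between libraries. GPX3 made up 55.1%, 31.6% and 43.2% of the glutathione peroxidase total, each with a counting SE of at most 0.192 percentage points. GPX1 held 25.3%, 37.7% and 31.2%, and GPX4 19.4%, 30.3% and 25.3%, while GPX8 was at most 0.325%. GPX3 was thus above GPX1 in IM and CMT but below it in CM, the ratio of GPX3 to GPX1 being 2.18, 0.838 and 1.39. Among dismutases SOD1 held 87.3%, 83.8% and 84.0%. SOD3 held 5.79%, 10.4% and 7.15%, and SOD2 6.92%, 5.85% and 8.81%, with counting SEs of at most 0.317 percentage points. SOD3 was above SOD2 in CM and below it in IM and CMT. The ratio of GPX3 to SOD3, the 2 secreted enzymes, was 45.2, 12.1 and 26.8.

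**Figure D3:**
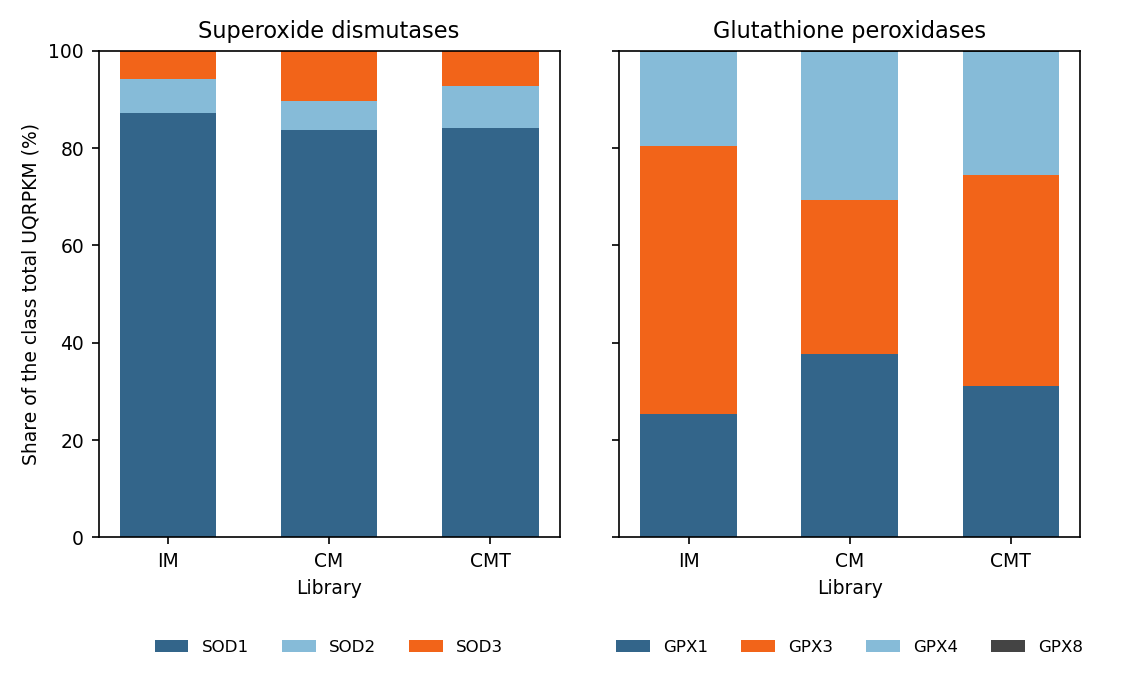
Share of each enzyme in the summed UQRPKM of the superoxide dismutases (left) and of the glutathione peroxidases (right) in each library, in percent of the class total. In the order IM, CM, CMT, GPX3 held 55.1%, 31.6% and 43.2% and SOD3 held 5.79%, 10.4% and 7.15%; GPX8, at most 0.325%, is too small to see.

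Summed by role, the dismutases had 10083.9, 9425 and 9063 UQRPKM. The peroxide removing enzymes had 68289, 59632 and 60345 UQRPKM, and their ratio to the dismutases was 6.77, 6.33 and 6.66. With GPX3 left out the order of the libraries was different, 41881, 47779 and 42966 UQRPKM, with CM highest in place of IM.

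Genes of 8 related lists, 115 of 120 of which were matched in the data, were set beside the enzymes. Of 103 genes compared between CM and IM, 6 were higher and 5 lower past the fold, or 10.7%, beside 18.8% of all mRNA genes. In CMT versus CM, 3 of 102 were higher and 11 lower, or 13.7% beside 19.5%. Between CMT and IM 5 were higher and 10 lower, or 14.7% beside 20.7%. This last balance rested on the scaling, with 8 higher and 5 lower at equal recovered reads and 8 and 7 by size factors. Among list genes at 100 UQRPKM or more in both libraries, 3 of 67, 5 of 66 and 8 of 67 were past the fold. Of all mRNA genes at that level, 4.12%, 5.24% and 6.55% were, so the lists did not stand below the background there. Of all genes compared, 8.38%, 9.53% and 8.81% were higher past the fold in the 3 comparisons and 10.4%, 9.97% and 11.9% lower, and the counts of single lists that follow stand beside these shares. In lists this small nothing particular to a list is read from them. The median log2 ratio of these genes was 0.03, -0.14 and -0.14 in the 3 comparisons, beside -0.06, -0.02 and -0.08 over all genes compared.

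Other peroxide enzymes, peroxiredoxins among them, gave no gene higher as deposited and 1 lower in CM versus IM, SRXN1. SRXN1 repairs overoxidized peroxiredoxins and had only 33, 16 and 29 reads. In CMT versus CM 1 of 7 was higher, again SRXN1, with an interval that includes 0, and 2 were lower, PRDX1 and PRDX5. Between CMT and IM 1 was lower, PRDX1. PRDX1, a cytosolic peroxiredoxin, had 4289, 4364 and 2617 UQRPKM. It was low only in CMT, at log2 ratios of -0.74 (95% interval -0.79 to -0.68) against CM and -0.71 against IM. PRDX5, found in mitochondria, peroxisomes and the cytosol, had 1876, 2787 and 1501 UQRPKM. It was highest in CM, and its log2 ratio was -0.89 (95% interval -0.98 to -0.81) in CMT versus CM. PRDX3 was also lower in CMT than in CM, but its 4069 UQRPKM in CMT lay above its IM level.

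Thioredoxins give peroxiredoxins their electrons. None of the 10 genes of the thioredoxin and glutaredoxin system was past the fold in any comparison. Of all genes 18.8% to 20.7% were, and 4.12% to 6.55% of those at 100 UQRPKM or more. The median log2 ratios of the 10 genes were -0.10, 0.11 and -0.06. Among 7 genes of glutathione synthesis and recycling only GGT5, which cleaves glutathione conjugates outside the cell, was past the fold as deposited, in CM versus IM. GGT5 had 184, 90.0 and 135 UQRPKM, low in CM and high in IM like GPX3, with a log2 ratio of -1.04 (95% interval -1.22 to -0.85) between CM and IM. Selenium genes and other selenoproteins had 1 of 18 higher and none lower in CM versus IM, beside 8.38% and 10.4% of all genes, 1 of 17 higher in CMT versus CM and 2 of 17 higher between CMT and IM. These were EPT1, LRP8, and EPT1 with PSTK, each at 42.9 UQRPKM or less. The list's median log2 ratio for CM versus IM was 0.07, and its part in the GPX3 difference was not tested. Selenoprotein P, SEPP1, which carries selenium in plasma, had 2914, 3327 and 4183 UQRPKM, under the fold in each comparison as deposited. Between CMT and IM its log2 ratio of 0.52 became 0.63 at equal recovered reads and 0.60 by size factors, past the fold.

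Enzymes that supply NADPH, the reductant that regenerates glutathione and thioredoxin, had 1 of 13 higher in CM versus IM, 1 lower in CMT versus CM and 1 higher between CMT and IM, beside 8.38% higher, 9.97% lower and 8.81% higher of all genes. The higher gene was MTHFD2, a mitochondrial folate enzyme, both times, with 28.2, 48.8 and 46.4 UQRPKM. TALDO1, transaldolase of the pentose phosphate pathway, had 8816, 11570.2 and 6609.5 UQRPKM. It was highest in CM and lowest in CMT, CMT against CM giving a log2 ratio of -0.81 (95% interval -0.87 to -0.75).

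Sources of superoxide and peroxide had 4 of 20 genes higher and 1 lower in CM versus IM, 1 higher and 5 lower in CMT versus CM, and 2 higher and 2 lower between CMT and IM. Past the fold in either direction were thus 25%, 30% and 20% of the list, beside 18.8%, 19.5% and 20.7% of all genes. Of these NOX5 and DUOX1, NADPH oxidases, stayed at 10.3 UQRPKM or less and MAOB, an amine oxidase of mitochondria, at 31.9 or less. CYBB, the catalytic subunit of the phagocyte oxidase, listed as GP91-PHOX, had 95.9, 147 and 82.5 UQRPKM. NCF1, its cytosolic organizer p47phox, had 60.3, 136 and 63.9 UQRPKM. Both were highest in CM, as SOD3 was. CM against IM gave log2 ratios of 0.62 for CYBB and 1.17 for NCF1, and CMT against CM gave -0.84 and -1.09. AOX1, an aldehyde oxidase that releases superoxide and peroxide, had 185, 509 and 479 UQRPKM. It was low only in IM, with log2 ratios against IM of 1.46 in CM and 1.38 in CMT. ACOX2, a peroxisomal oxidase of branched fatty acids and bile acid precursors, had 183, 239.9 and 113 UQRPKM and was lowest in CMT, with a log2 ratio of -1.09 against CM and -0.70 against IM. AOC3, an amine oxidase of fat cells, had 3547, 4242 and 2576 UQRPKM and a log2 ratio of -0.72 in CMT versus CM. ERO1L, which forms disulfides and peroxide in the endoplasmic reticulum, had 113, 125 and 176 UQRPKM and a log2 ratio of 0.65 in CMT versus IM. At equal recovered reads ACOX2 came under the fold in CMT versus IM and DUOX1 past it, which gave 3 higher and 1 lower. By size factors DUOX1 was also past it, with 3 higher and 2 lower.

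The NRF2 axis, the regulator of many antioxidant genes with its partners and targets, had no gene higher past the fold in any comparison and 2, 2 and 4 of 9 lower in the 3 comparisons in the order given, beside 10.4%, 9.97% and 11.9% of all genes. At equal recovered reads the lower genes were 1, 0 and 2, since ABCC1 in CM versus IM, KEAP1 and MAFK came under the fold. By size factors ABCC1 in CM versus IM and MAFK in CMT versus IM also came under it. KEAP1 in CMT versus CM did so in each of the 3 other scalings. KEAP1, the inhibitor of NRF2, and MAFK, one of its partners, were the lower genes of CMT versus CM as deposited. They had 99.1, 91.9 and 61.1 UQRPKM for KEAP1 and 79.7, 78.7 and 50.7 for MAFK. MAFF, a small partner protein of NRF2, had 173, 105 and 107 UQRPKM. ABCC1, an exporter of glutathione conjugates, had 339.5, 221 and 183 UQRPKM. MAFF and ABCC1 were highest in IM, and their log2 ratios against IM were -0.72 and -0.62 in CM and -0.70 and -0.89 in CMT. NFE2L2, which encodes NRF2 itself, had 404, 493 and 416 UQRPKM and was under the fold in each comparison. Peroxisome genes had 1 of 19 lower in CMT versus CM and 3 of 19 lower between CMT and IM, beside 9.97% and 11.9% of all genes. PEX10, a ubiquitin ligase of the import machinery, was lower in both, with 49.2, 37.9 and 24.2 UQRPKM. ABCD3, a peroxisomal membrane transporter, and PEX14, which docks imported proteins, had log2 ratios of -0.64 and -0.59 between CMT and IM. PEX14 came under the fold in each of the other scalings and ABCD3 in 2 of them. CAT was not among the lower genes there, at -0.04.

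**Figure D4:**
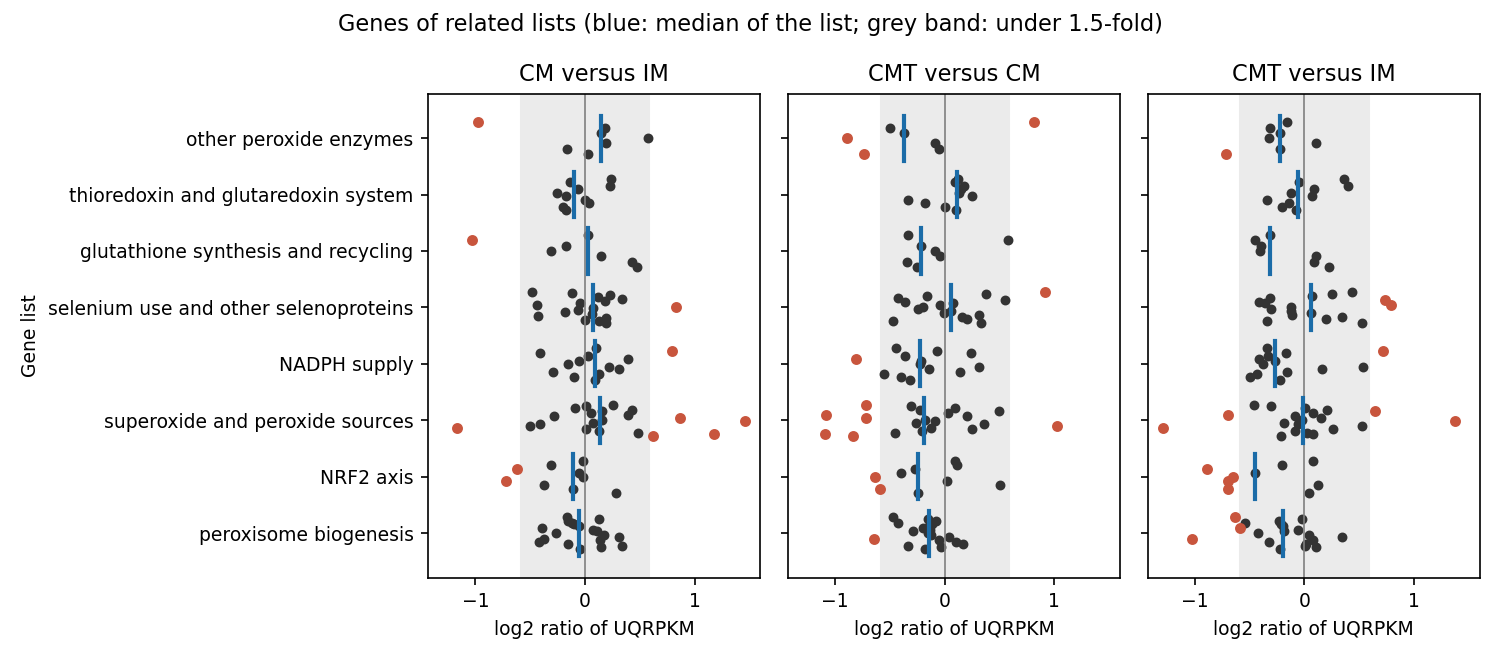
Log2 ratio of UQRPKM for each compared gene of the 8 related lists in the 3 comparisons; red points lie past 1.5-fold, outside the grey band, and blue bars mark list medians. The thioredoxin and glutaredoxin genes stayed within the band in all comparisons, and the sources of superoxide and peroxide had 4 genes above and 1 below it in CM versus IM.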

How the data were processed

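RNA-Seq values of 3 libraries, IM, CM and CMT, were analysed, each made from pooled RNA and assigned by its sample title. The authors filtered Ion Proton reads, mapped them to Sscrofa 10.2 with MapSplice and deposited 1 RPKM value per gene, in the form of UQRPKM. The counting tool, annotation and handling of reads shared between genes are not given in the sources used here. Genes were matched by symbol or, through the RefSeq table of Sscrofa11.1, by gene ID. Coordinates of that assembly are not printed because the builds differ. The members and lists were chosen with earlier results of these data known.

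Reads were recovered per gene with the smallest length, of at most 120000 bases, that turned every library's value into a whole number within a relative error of 1e-08. Upper quartiles of 149, 142 and 146 were taken from the commonest ratios of low values. The upper quartiles of the recovered reads were not the same. They were 138, 132 and 136 over all genes and 341, 313 and 317 over mRNA genes. The read numbers and intervals rest on the inferred values. Reads whose numbers share a factor can be too low, which widens intervals. The calculation was tested on simulated data. Related genes are named if past 1.5-fold with at least 100 UQRPKM in 1 library, at most 4 per list and comparison. SRXN1, EPT1, LRP8, PSTK, SEPP1, MTHFD2, PNPLA2, LEP, CD68, EMR1, MARCO, DES, NOX5, DUOX1, MAOB, KEAP1, MAFK, NFE2L2, PEX10 and the genes of the closing paragraph were chosen after their values were seen. So were APOA1, CXCR2, MPO, ELANE and the further macrophage markers. Alternatives were 3 other scalings, a pseudocount of 1, no minimum or 10 UQRPKM, a fold of 2 and an exact binomial test on reads. A minimum of 100 UQRPKM and matching by symbol alone were added after seeing the data. Python 3.11.15, scipy 1.17.1 and pandas 2.3.3 were used.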

Additional observations from a re-analysis of the deposited data

How the results depend on the processing

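Each pool is 1 library, so leaving out a library was not possible. No paired analysis was possible because each group has 1 library. In CM versus IM, where 2 enzymes were past the fold, GPX3 and SOD3 both kept this call under the 3 scalings, the pseudocount, the 3 other minimum values and the exact binomial test. A fold of 2 left 1, GPX3, and matching by symbol alone, which loses SOD3, left 1. In CMT versus CM the single call, SOD3, gave way to 0 under scaling to total UQRPKM, by size factors, at a fold of 2 and with symbols alone, and to 2 others, GPX3 and SOD2, under scaling to total recovered reads. In CMT versus IM the single call, GPX3, gave way to 0 under each of the 3 scalings and at a fold of 2. The related lists, with 11, 14 and 15 genes past the fold, had 4, 3 and 3 at a fold of 2. At a minimum of 100 UQRPKM, where fewer genes were compared, they had 3 of 67, 5 of 66 and 8 of 67. Of 27 log2 ratios of the enzymes, 2 changed sign under a scaling, that of SOD1 in CMT versus CM and that of CAT in CMT versus IM. Scaling to total recovered reads moved the median of all genes by 0.11 in CMT versus IM and the share of higher genes among those past the fold from 42.4% to 56.8%, or to 52.6% by size factors. Where genes past the fold also had to pass an exact binomial test on their reads, adjusted by the Benjamini-Hochberg method, they numbered 1388 in place of 2657, 1446 in place of 2749 and 1653 in place of 2936 in the 3 comparisons; it compares libraries, not conditions.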

Other observations

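Some relatives of these enzymes had few reads. GPX6 had 17 reads in CM and 0 in the other libraries. GPX2, the glutathione peroxidase of the gut, had 3, 0 and 1 reads in IM, CM and CMT. XDH, which makes superoxide and peroxide while forming uric acid, had 2, 32 and 5 reads in that order, most of them in CM. CCS, the protein that hands copper to SOD1, was at 262, 296 and 210.2 UQRPKM.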
